A study of Mus musculus with 6 samples.

Results

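The genes of the mouse major histocompatibility complex (MHC) were examined in T cells sorted from normal and ischemic kidneys. All features whose symbol starts with H2- were taken, together with B2m, Tap1, Tap2, Tapbp, Nlrc5, Ciita and Cd74. This gave 41 genes of 32285 features, of which 29 belonged to class I, 11 to class II and 1, H2-Ke6, to neither. H2-Ke6 lies among the MHC genes and encodes a steroid dehydrogenase.

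Male WT C57BL/6J mice aged 7 to 8 weeks were used in all 6 groups. In the IR (ischemia reperfusion) groups a clamp was held on the pedicle of each kidney for 30 min, and the control groups came from normal kidneys. Serum creatinine was measured 24 h after ischemia, and no separate time of kidney collection is given here. CD45+ TCR+ cells were sorted as CD4, CD8 or DN (double negative for CD4 and CD8), and each of the 6 groups was 1 library of droplet-based 3′ RNA sequencing. The sources used here do not say whether a library held cells of 1 mouse or of several. No difference below therefore has a replicate check, no test was run, and every interval is an exact 95% interval that covers counting error only.

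Levels are CPM, the count of a gene for each 1000000 unique molecular identifiers (UMIs) of a library, after barcodes of low quality and the top 5% by UMIs were set aside. Values that follow each other for control or for IR are in the order CD4, CD8, DN unless said otherwise. A UMI marks 1 captured molecule near its 3′ end, so the levels were not scaled by gene length. Control libraries kept 8913 to 9313 barcodes with a median of 6627 to 8361 UMIs. IR libraries kept 4141 to 10212 barcodes with a median of 1451 to 2351 UMIs, so IR barcodes were shallower in each subset. As a check of the T cell label, 90.1% to 99.1% of barcodes had a Cd3d, Cd3e or Cd3g UMI. Ribosomal protein genes took 16.5% to 22.7% of UMIs in control and 27.1% to 42.7% in IR libraries, and were left out of the totals. Between 97 and 118 barcode sequences were shared by each pair of control libraries and between 164 and 168 by each pair of IR libraries.

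Class I molecules display peptides from inside the cell on nearly all nucleated cells, where CD8 T cells and natural killer cells read them. They consist of a heavy chain and B2m, loaded with peptides that the Tap1 and Tap2 transporter brings into the endoplasmic reticulum with the help of Tapbp (tapasin), and Nlrc5 is the transcriptional activator of the class I genes. Class II molecules present peptides from taken-up material to CD4 T cells, are made mainly by B cells, macrophages and dendritic cells, and depend on the transactivator Ciita, and resting mouse T cells are known for making little or none of them.

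Promoter windows were searched for short elements known from MHC genes. RefSeq promoter windows on build GRCm38.p6, from 250 bases before to 50 after the start, were found for 34 of 41 genes, 25 of class I and 8 of class II. Both strands were searched for 4 motifs. The enhancer A core GGGATTCCC stood in 5 of 27 class I windows and 0 of 9 class II windows, against 0.353% of all 32851 windows. The interferon response element part TTTCACTT stood in 10 of 27 and 0 of 9, against 1.6%. The Y box CTGATTGG, bound by nuclear factor Y, stood in 16 of 27 and 4 of 9, against 4.1%. The X box part AGCAACNG stood in 1 of 27 and 2 of 9, against 5.14%. H2-K1 and H2-M9 have 2 overlapping windows each. By gene, the enhancer A core, TTTCACTT and the Y box stood in 4, 9 and 14 of 25 class I genes. Those with the Y box include H2-M1, H2-M9, H2-M11 and genes of the H2-M10 group, which had no UMI in any library. No difference between the classes was tested. No matches overlapped in these genes, and a match is a description of letters, not a shown binding site. The 190 bases that end at the annotated start are printed for the abundant class I genes H2-K1, H2-D1 and H2-Q7, for H2-Q10, which was lower in IR libraries, and for class II genes with unlike carriers. They read 5′ to 3′, and capitals mark the motifs:
H2-K1, chr17:34000334-34000523, minus strand: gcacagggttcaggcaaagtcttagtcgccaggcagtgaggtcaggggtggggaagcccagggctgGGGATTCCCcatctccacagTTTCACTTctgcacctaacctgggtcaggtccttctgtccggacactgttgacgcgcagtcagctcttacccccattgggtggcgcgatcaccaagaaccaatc
H2-D1, chr17:35262904-35263093, plus strand: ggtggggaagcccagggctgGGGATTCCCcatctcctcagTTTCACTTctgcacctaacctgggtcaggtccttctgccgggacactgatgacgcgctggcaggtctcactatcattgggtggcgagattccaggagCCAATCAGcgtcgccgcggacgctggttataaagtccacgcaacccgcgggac
H2-Q7, chr17:35438965-35439154, plus strand: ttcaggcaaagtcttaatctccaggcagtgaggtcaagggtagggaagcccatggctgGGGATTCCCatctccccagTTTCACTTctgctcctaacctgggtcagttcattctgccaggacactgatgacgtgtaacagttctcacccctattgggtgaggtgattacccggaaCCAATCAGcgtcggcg
H2-Q10, chr17:35469899-35470088, plus strand: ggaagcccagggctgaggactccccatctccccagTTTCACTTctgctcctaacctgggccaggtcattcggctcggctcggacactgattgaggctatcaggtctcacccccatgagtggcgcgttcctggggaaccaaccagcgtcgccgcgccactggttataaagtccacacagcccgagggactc
H2-Aa, chr17:34287824-34288013, minus strand: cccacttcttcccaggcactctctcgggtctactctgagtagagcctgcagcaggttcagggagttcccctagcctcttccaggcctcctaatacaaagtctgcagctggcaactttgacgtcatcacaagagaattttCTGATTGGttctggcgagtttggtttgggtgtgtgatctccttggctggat
H2-Eb1, chr17:34305677-34305866, plus strand: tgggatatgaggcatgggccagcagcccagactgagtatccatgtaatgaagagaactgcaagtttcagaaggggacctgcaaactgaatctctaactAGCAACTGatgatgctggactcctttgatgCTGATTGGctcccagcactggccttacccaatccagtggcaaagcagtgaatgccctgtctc
H2-Oa, chr17:34092189-34092378, plus strand: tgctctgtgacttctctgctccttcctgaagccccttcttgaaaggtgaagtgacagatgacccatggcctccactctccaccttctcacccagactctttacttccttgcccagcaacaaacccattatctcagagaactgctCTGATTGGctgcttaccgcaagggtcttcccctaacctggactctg
In H2-K1, which has 2 windows, the Y box crossed the annotated start and is not marked. H2-Q10 kept the TTTCACTT match but had no match for the enhancer A core or the Y box. H2-Aa and H2-Oa held the Y box, and H2-Eb1 held the Y box and the X box part.

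Class I genes were transcribed at high levels in all 6 libraries. Of 29 class I genes, 15 reached 10 CPM in at least 1 library, 5 had UMIs but stayed lower, and 9 had no UMI. A count of 0 allows up to 3 counts, or 0.0493 to 0.664 CPM depending on the library. The 9 genes without a UMI were H2-M1, H2-M9, H2-M11 and H2-M10.1 to H2-M10.6 of the M region, and the 5 scarce ones were H2-Q1, H2-Q2, H2-T3, H2-M2 and H2-M5 with 1 to 102 UMIs over all libraries. The M region lies at the far end of the complex, and its one well expressed gene here was H2-M3, which presents formylated bacterial peptides, at 76.0 to 106 CPM.

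The classical heavy chain H2-K1 stood at 3600, 3693 and 3486 CPM in control and at 3823, 2738 and 3868 CPM in IR libraries. H2-D1, the other classical heavy chain of this strain, stood at 3074, 3465 and 3183 CPM in control and at 3308, 2363 and 2975 CPM in IR libraries. B2m, the shared light chain, stood at 2935, 2846 and 3003 CPM in control and at 3235, 2982 and 3206 CPM in IR libraries. For both heavy chains the IR CD8 library was the lowest of the 6, whereas B2m varied little. No IR over control ratio of these 3 genes reached 2-fold. Their log2 ratios lay between -0.55 and 0.15, and the signs of the small ratios depended on the scaling. In CD4, H2-K1, H2-D1 and B2m had ratios of 0.09, 0.11 and 0.14 with ribosomal, mitochondrial and Malat1 UMIs out of the totals and of -0.27, -0.25 and -0.21 with them in, when the median of all features also moved by -0.37.

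Heavy chain UMIs came mostly from 2 genes. All heavy chain genes together reached 9585, 10366 and 9209.6 CPM in control and 9491, 6916 and 9238 CPM in IR libraries. H2-K1 gave 35.6% to 37.9% of them in control and 39.6% to 41.9% in IR libraries, and H2-D1 gave 32.1% to 34.9% in all 6. The genes other than H2-K1 and H2-D1 gave 30.4%, 30.9% and 27.6% in control and 24.9%, 26.3% and 25.9% in IR libraries, a smaller share in each IR library than in its control.

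Among the nonclassical heavy chains, H2-Q7, a gene of Qa-2, stood at 1299.9, 1449.8 and 1183 CPM in control and 921, 722 and 936 CPM in IR libraries. H2-T23, which encodes Qa-1, the ligand of CD94/NKG2 receptors, stood at 498, 564 and 427 CPM in control and 445, 348 and 330.2 CPM in IR libraries. Every IR library was below its control for these genes, and the difference reached 2-fold for H2-Q7 in CD8, with a log2 ratio of -1.01. That ratio missed 2-fold under 3 alternatives, at -0.99 with TMM scaling, -0.97 in barcodes with a Cd3 UMI and -0.97 without barcodes shared between libraries. Transcript ends of H2-Q6 are partly shared with H2-Q7, and H2-Q6 was higher in IR DN (471 CPM) than in control DN (317 CPM).

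H2-Q4 stood at 411, 432 and 285 CPM in control and 355, 233 and 394 CPM in IR libraries. H2-Q6 stood at 340, 355 and 317 CPM in control and 334, 248 and 471 CPM in IR libraries. Both were lower in the IR CD8 library and higher in the IR DN library than in the matching control, each by less than 2-fold. H2-T22, a ligand of some gamma delta T cell receptors, ranged from 173 to 266 CPM. Reads of near-identical copies limit these values: 26.6% of 91-base windows at the transcript ends of H2-Q6 occur in another gene, mostly of the Q region, and 25.7% of those of H2-T22 occur in H2-T10, against 0.0756% for H2-K1 and none for H2-D1.

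**Figure D1:**
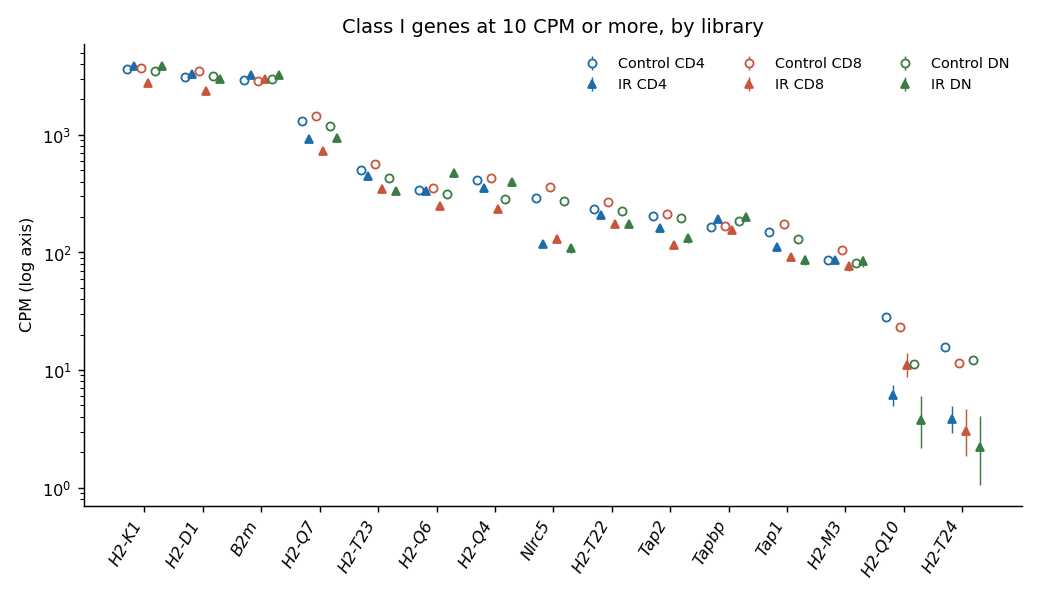
CPM (log axis) of the 15 class I genes that reached 10 CPM, with open circles for control and filled triangles for IR libraries, and bars for exact 95% Poisson intervals. H2-K1, H2-D1 and B2m sit between 2363 and 3868 CPM in every library, while Nlrc5, H2-Q10 and H2-T24 are lower in each IR library than in its control.

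In the comparison of ischemic with normal kidneys, 3 class I genes were at least 2-fold lower in the IR CD4 library, 4 in IR CD8 and 3 in IR DN, of 15 at 10 CPM or more in each case, and 0 were higher. Over all features at that level, 14.7% were at least 2-fold lower and 8.04% higher in IR CD4, 16.6% and 8.8% in IR CD8, and 10.1% and 9.57% in IR DN. The counts of class I genes are few and are not far from these shares. The median log2 ratio of the class I genes was -0.16 in CD4, -0.70 in CD8 and -0.34 in DN, against -0.26, -0.36 and -0.23 over all features, so the class I median was above that of all features in CD4 and below it in CD8 and DN. The CD4 direction turned with intron length: centred among features of like intron length, every class I gene tested in CD4 but Tapbp (0.22) had a ratio below 0, such as -0.35 for H2-K1 and -0.98 for H2-Q7.

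Nlrc5, the class I transactivator, was lower in all 3 subsets. It stood at 292, 359 and 275 CPM in control and at 117, 129 and 109 CPM in IR libraries. The highest IR value was below the lowest control value, and the log2 ratios were -1.32, -1.48 and -1.34. Nlrc5 (chr8:94434356-94527272, plus strand, GRCm38) is also the longest of the 41 genes, with 84424 bases of intron. The median log2 ratio was 0.12, -0.12 and 0.01 over features with short introns (below the median length), above the values of all features, and once ratios were centred among features of like intron length those of Nlrc5 were -0.54, -0.75 and -0.77, below 2-fold.

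H2-Q10 encodes a secreted heavy chain known best from liver, and its level was low in T cells. It stood at 28.0, 23.4 and 11.4 CPM in control, and at 6.08, 11.1 and 3.77 CPM in IR libraries (95, 73 and 17 UMIs). Control DN had less H2-Q10 than control CD4 and CD8, and the IR libraries were lower again, with log2 ratios of -2.20, -1.07 and -1.59. The CD8 ratio was between -1.49 and -0.92 over the alternatives, and fell short of 2-fold in 3 of them.

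H2-T24 stood at 15.6, 11.5 and 12.1 CPM in control and at 3.84, 3.04 and 2.21 CPM in IR libraries (60, 20 and 10 UMIs). Its log2 ratios of -2.02, -1.92 and -2.45 stayed past 2-fold under every alternative that gave a value. H2-T24 (chr17:36005695-36020560, minus strand) lies inside A930015D03Rik, a noncoding gene of the opposite strand that also spans H2-T23 and part of H2-T22. This gene, looked at after the values of H2-T24 were known, went the other way, from 156, 274 and 382 CPM in control to 979, 2183 and 1453 CPM in IR. The sources used here do not say if the counting used strand, and the part of the overlap in these values was not tested.

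The peptide transporter genes did not reach a 2-fold difference. Tap1 stood at 149, 173 and 129 CPM in control and at 111, 92.1 and 85.9 CPM in IR libraries, and Tap2 at 205, 214 and 195 CPM in control and 160, 117 and 132 CPM in IR libraries. Each IR value was below its control by less than 2-fold, with log2 ratios from -0.35 to -0.91. Tapbp, which bridges the transporter and the heavy chain, was between 154 and 199 CPM in all 6 libraries with no such pattern.

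**Figure D2:**
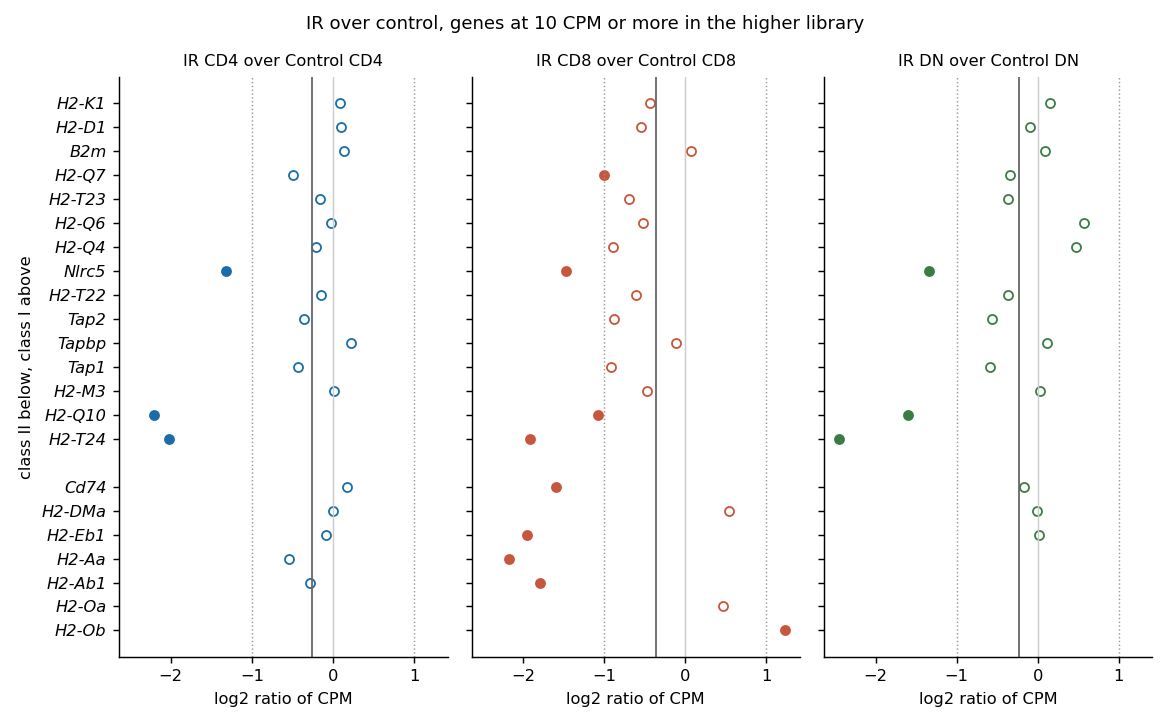
Log2 ratio of CPM, IR over control, in CD4, CD8 and DN for the genes at 10 CPM or more in the higher of both libraries. Filled points differ at least 2-fold, dotted lines mark 2-fold and the dark line marks the median of all features at that level (-0.26, -0.36 and -0.23). Nlrc5, H2-Q10 and H2-T24 are filled in all 3 panels, and the class II genes are filled in CD8 only.

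Between subsets class I differed little. H2-Q10 was the only class I gene to differ at least 2-fold: lower in control DN than in control CD4 (log2 -1.30) and control CD8 (-1.04), and lower in IR DN than in IR CD8 (-1.56). The counts of 1 of 15, 1 of 15 and 1 of 14 class I genes stood beside 2.75%, 6.61% and 11.1% of all features that differed either way. For CD8 against CD4 in control the count was 0 of 15 (4.38% of all features), for DN against CD4 in IR 0 of 13 (8.09%) and for CD8 against CD4 in IR 0 of 14 (7.81%). All subset comparisons of a condition share libraries.

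Single barcodes nearly always carried class I. When each barcode was thinned to 1000 UMIs and shallower ones were left out (34 to 566 per library), a heavy chain UMI was found in 99.6%, 99.7% and 99.7% of control barcodes. In IR libraries the share was 98.0% (interval 97.7 to 98.3), 94.9% (94.3 to 95.4) and 98.3% (97.8 to 98.6). Without thinning it was 98.6% or more in every library. The median thinned barcode held 9 or 10 heavy chain and B2m UMIs in control, and 8, 5 and 9 in IR. The 1000 UMIs include ribosomal ones, and IR CD8 had both the largest ribosomal share and the lowest class I count.

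Class I levels were also compared between barcodes with and without UMIs of interferon-stimulated genes. Barcodes with 3 or more such UMIs (a list of 10 measured genes such as Ifit1, Ifit3 and Isg15) were set beside those with 0, within each library and outside the class II-rich barcodes. The class I genes that reached 2-fold numbered 1 of 15 in each control library, against 1.03%, 1.21% and 0.945% of all features at 10 CPM or more, and 5 of 15, 5 of 14 and 5 of 14 in IR libraries, against 3.12%, 8.28% and 8.98%. The median log2 ratio of class I genes was 0.23, 0.18 and 0.21 in control and 0.68, 0.81 and 0.46 in IR libraries, where that of all features was -0.04, -0.02 and -0.03 in control and -0.12, -0.12 and -0.07 in IR. The class I medians were above those of all features in each library, by less in control than in IR. H2-T24 led in control: 31.3 against 12.1 CPM in CD4, 21.2 against 7.57 in CD8 and 24.1 against 8.48 in DN. Tapbp differed by 0.42, 0.33 and 0.41 on the log2 scale in control and by 1.28, 1.06 and 1.39 in IR libraries. The same limit of 3 UMIs takes 14.2% to 15.9% of barcodes in control and 1.94% to 2.90% in the shallower IR libraries, so the ratios of control and IR are not matched. In IR these were 296, 125 and 93 barcodes, where 2-fold ratios of scarce genes rest on few UMIs. Barcodes with 3 or more such UMIs were also deeper, with a median of 8159 against 6196 UMIs in control CD4.

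Barcodes outside the class II-rich ones were also split by a UMI of Ccr7, the homing receptor of naive and central memory T cells. The median log2 ratio of class I genes, Ccr7 barcodes over the rest, was -0.48 and -0.47 in control CD4 and CD8 and -0.40 and -0.30 in IR CD4 and CD8. Over all features it was -0.05 and -0.01 in control and -0.07 and 0.00 in IR. At least 2-fold lower were 1 and 0 of 15 class I genes in control CD4 and CD8, against 7.44% and 5.68% of all features, and 2 and 2 of 15 in IR CD4 and CD8, against 8.82% and 6.99%. The class I medians were thus below those of all features, but few genes reached 2-fold. H2-Q6 had log2 ratios of -1.59 in control CD4 and -1.69 in IR CD4. DN libraries held only 31 and 23 Ccr7 barcodes, too few for a comparison. Ccr7 UMIs were found in 7.52% and 16.8% of these barcodes in control CD4 and CD8 and in 19.8% and 36.9% in IR CD4 and CD8, although the latter were shallower.

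The other genes of the class I pathway comprised 17 genes, of which 15 or 16 reached 10 CPM. In IR over control, 0 were higher in any subset, and 0, 3 and 1 were at least 2-fold lower in CD4, CD8 and DN, not far from the 14.7%, 16.6% and 10.1% of all features. Erap1, which trims peptides in the endoplasmic reticulum, was lower in CD8 (98.3 to 43.3 CPM) and DN (97.6 to 46.1 CPM). Pdia3, a chaperone of peptide loading, was lower in CD8 (389 to 177 CPM).

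Class II was scarce in these libraries and unevenly held. H2-Aa, H2-Ab1 and H2-Eb1 encode the chains of I-A and the beta chain of I-E, and C57BL/6 mice lack the I-E alpha chain. H2-Aa stood at 18.68, 11.7 and 9.21 CPM in control and at 12.9, 2.58 and 5.32 CPM in IR libraries. H2-Ab1 stood at 18.0, 13.1 and 8.76 CPM in control and at 14.8, 3.80 and 6.64 CPM in IR libraries. H2-Eb1 stood at 19.3, 14.7 and 10.1 CPM in control and at 18.2, 3.80 and 10.2 CPM in IR libraries. In both conditions CD4 was the highest subset for all 3 genes, and IR CD8 was the lowest library. Cd74, the invariant chain that guides class II through the cell, stood at 56.6, 44.7 and 31.2 CPM in control and 64.0, 14.7 and 27.7 CPM in IR libraries, in the same order.

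Most class II UMIs came from a few barcodes. Barcodes with 10 or more UMIs of H2-Aa, H2-Ab1 and H2-Eb1 together are called class II-rich. There were 37, 17 and 10 of them in control and 13, 3 and 3 in IR libraries, 83 (0.172%) beside 48194 other barcodes. The limit is fixed while depth differs, and with a limit of 0.2% of a barcode's UMIs in its place there were 30, 17 and 8 in control and 22, 3 and 6 in IR libraries, so the gap between conditions in CD4 and DN depends on the limit. These 83 barcodes held 4834 UMIs of the 3 genes, 66.9% of the total. By library they held 66.4%, 67.0% and 68.8% in control and 66.5%, 47.8% and 62.0% in IR libraries. The single richest barcode gave 691 UMIs in control DN, 40.5% of that library's class II, and the richest in the other libraries gave 13.4% to 34% of theirs. At the other end, 91.8%, 95.1% and 95.2% of control barcodes and 98.6%, 99.5% and 99.3% of IR barcodes held no UMI of these genes. Just inside the limit, 19, 5 and 3 control and 2, 3 and 2 IR barcodes had 10 to 19 UMIs, and just outside it 17, 11 and 6 control and 12, 0 and 1 IR barcodes had 5 to 9.

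The class II-rich barcodes were then read with marker lists, where 3 or more UMIs of a list count as a mark. Of the 83, 61 were marked by macrophage or monocyte genes, 58 by T cell genes, 26 by B cell genes, 4 by endothelial genes and 2 by dendritic cell genes. The NK cell and innate lymphoid cell list marked 60 of them, and 30.1% of the other barcodes, where Rora and Gata3 carried it. In class II-rich barcodes it came mostly from Tyrobp, a gene that macrophages also make, with 264 UMIs in 53 barcodes, while Ncr1 had no UMI. Among the other 48194 barcodes, 94.97% were marked by T cell genes and 0.295% by macrophage or monocyte genes. B cell genes marked 7.69% of these other barcodes (13.0% in control and 0.684% in IR libraries), but almost entirely through Ighm, with 29924 UMIs there, whereas Pax5 had 8. No class II-rich barcode was marked by neutrophil, tubule or erythroid genes.

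Most class II-rich barcodes of control libraries carried T cell and antigen-presenting cell genes together. In the 3 control libraries, 52 of 64 were marked by T cell genes, and 32 of them by macrophage, monocyte or dendritic cell genes as well but not by B cell genes, 5 by T and B cell genes only and 6 by T cell genes alone, the rest by all these kinds. Most of the 18 B cell marks in control were weak, with 3 to 7 UMIs, and the others had 49 to 103, whereas the 8 in IR had 8 to 35. In the 3 IR libraries, 6 of 19 were marked by T cell genes, 5 by macrophage, monocyte or dendritic cell genes with no T or B cell mark, and 7 by B cell genes with no T cell or macrophage mark. A Cd3 UMI was present in 55 of 64 control and 6 of 19 IR class II-rich barcodes. In control CD4 the richest barcode had 394 class II UMIs, 150 macrophage or monocyte UMIs and 41 T cell UMIs, and in control DN the richest had 691, 254 and 1. Class II-rich barcodes had a higher median depth than the rest in 5 libraries, for example 7452 against 7020 UMIs in control CD4 and 2859 against 2350 in IR CD4, and a lower one in IR CD8, with 1610 against 1757 UMIs. A limit set in UMIs by itself favours deep barcodes. Other barcodes with a class II UMI also had higher medians than all other barcodes in each library, such as 7315 UMIs in control CD4 and 2650 in IR CD4. The highest 5% of barcodes by UMIs had been set aside but no doublet caller was run, and whether a barcode held 1 cell or several was not tested.

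**Figure D3:**
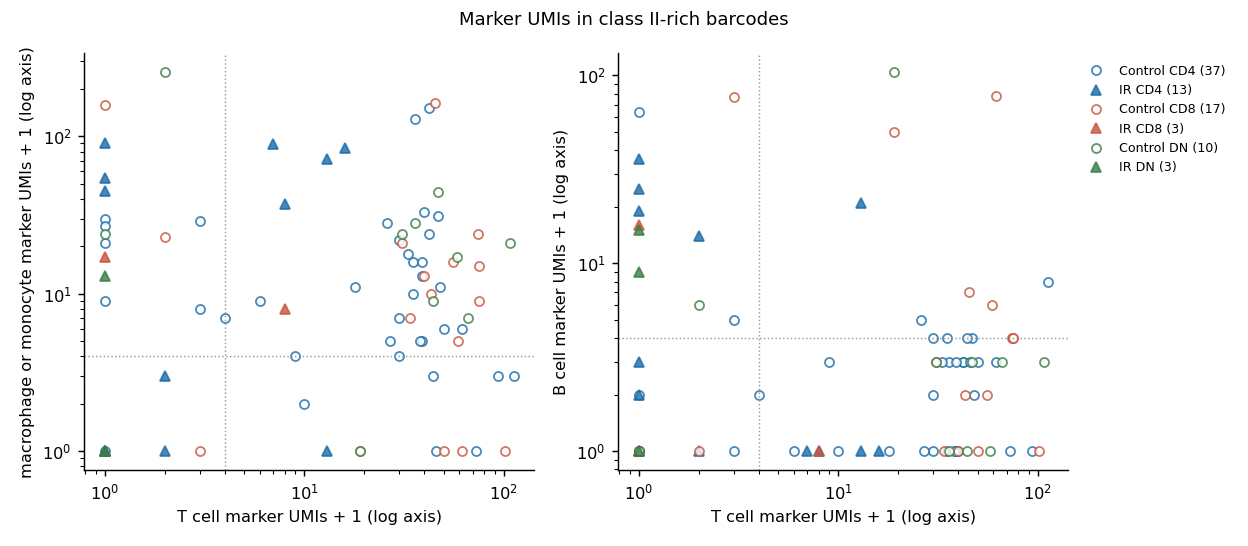
T cell marker UMIs against macrophage or monocyte marker UMIs (left) and B cell marker UMIs (right) of the 83 class II-rich barcodes, plus 1, on log axes, with dotted lines at 3 UMIs. Control barcodes lie mostly to the right of the vertical line, with T cell marks, and 6 of 19 IR barcodes do.

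The markers with most UMIs were these. C1qa, C1qb and C1qc, complement genes of macrophages, had 664, 567 and 381 UMIs in the class II-rich barcodes, which is 61.6%, 51.1% and 53.3% of all their UMIs in barcodes that make up 0.172% of the total. Ighm, Ebf1 and Cd79a led the B cell list with 170, 156 and 119 UMIs, and 52.2% of all Cd79a UMIs, a part of the B cell receptor, were in class II-rich barcodes. Trbc2, Cd3g and Cd3d led the T cell list with 711, 456 and 352 UMIs, at most 0.203% of those genes' UMIs. Of the dendritic cell genes, Xcr1, Zbtb46, Clec10a, Snx22 and Siglech had no UMI in these barcodes, Flt3 had 1, Clec9a had 5 and Itgax led with 17.

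Class II genes outside the class II-rich barcodes were low but not at 0, and part of them was in barcodes with macrophage or monocyte marks. In IR CD4 such marks were on 66.7% of barcodes with 5 to 9 class II UMIs, 46.4% with 2 to 4 and 12.9% with 1, against 0.318% with 0. In control CD4 they were on 29.4% with 5 to 9, 4.17% with 2 to 4 and only 0.344% of the 582 barcodes with 1, against 0.153% with 0. Outside the class II-rich barcodes, H2-Ab1 stood at 5.50, 4.51 and 2.80 CPM in control and at 5.39, 1.82 and 2.66 CPM in IR libraries. The IR CD8 interval, 0.943 to 3.19 CPM, lay below the control CD8 interval, 3.91 to 5.17 CPM, and the CD4 and DN intervals overlapped between conditions. After thinning to 1000 UMIs, a class II UMI was found in 1.73%, 1.09% and 0.654% of such control barcodes and in 0.707%, 0.289% and 0.404% of IR barcodes. Empty droplets were not analysed here, so the share that free RNA gives is not known.

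Cd74 was also found outside the class II-rich barcodes. It made up 44.7%, 51.4% and 48.3% of the UMIs of Cd74, H2-Aa, H2-Ab1 and H2-Eb1 in class II-rich barcodes of control, and 58.6%, 56.1% and 60% in the others. In IR CD4 the shares were 45.4% (42.1 to 48.8) in class II-rich and 71.5% (68.3 to 74.5) in other barcodes. The chain UMIs that chose the barcodes are part of this share, which lowers it in the class II-rich ones, so the values are a description. Of the other barcodes with a Cd74 UMI, 15.0% to 23.7% also had a class II UMI.

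**Figure D4:**
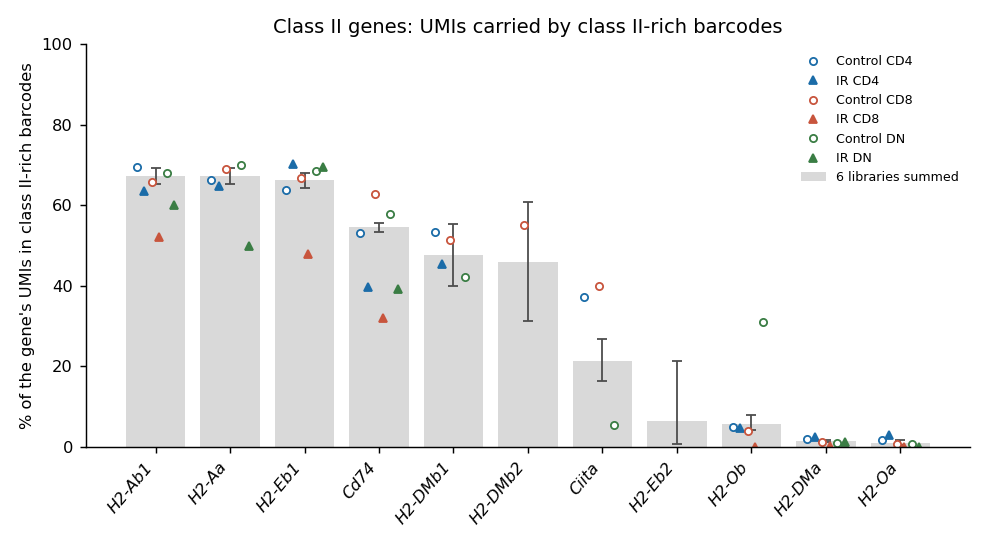
Percent of each class II gene's UMIs found in class II-rich barcodes, with gray bars for the 6 libraries summed (exact 95% binomial intervals) and points for libraries with at least 20 UMIs of the gene. H2-Ab1, H2-Aa and H2-Eb1, which define the group, stand near 67%, and H2-DMa and H2-Oa near 1%.

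The accessory class II genes differed in their carriers. H2-Aa, H2-Ab1 and H2-Eb1 chose the class II-rich barcodes, so their 67.3%, 67.3% and 66.2% there are a description. Of the genes that did not, Cd74 had 54.5% of 8017 UMIs there, H2-DMb1 47.6% of 168, H2-DMb2 45.8% of 48 and Ciita 21.3% of 253. H2-DMa, H2-Oa and H2-Ob had 1.41% of 7091, 0.969% of 929 and 5.83% of 618. Libraries differed for some of these: H2-Ob had 31.0% of 29 UMIs there in control DN and 41.7% of 12 in IR DN but at most 5% in CD4 and CD8, and Ciita had 37.3% and 40% in control CD4 and CD8 but 5.45% in control DN. H2-DMa and H2-DMb1 encode the chains of the DM peptide editor, and H2-Oa and H2-Ob those of DO, its inhibitor. Most UMIs of the DM alpha chain gene were thus outside the class II-rich barcodes, while those of its beta chain genes were split about evenly. Its level was nonetheless higher inside them, at 168 against 35.1 CPM in control CD4 and 552 against 34.8 CPM in IR CD4. H2-Eb2 had 31 UMIs in all. H2-Ke6, of neither class, stood at 45.5, 64.2 and 49.6 CPM in control and 66.0, 81.3 and 59.4 CPM in IR libraries, and 45.3% of its end windows occur in Gm20427.

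H2-DMa stood at 35.6, 42.7 and 36.4 CPM in control and at 35.6, 62.2 and 36.1 CPM in IR libraries. It was flat except in IR CD8, which was the highest library, at less than 2-fold over its control. H2-DMa (chr17:34119541-34139101, plus strand) overlaps the start of Brd2 on the opposite strand, at 169 to 301 CPM, and the part of this overlap was not tested.

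H2-Oa was highest in CD8 libraries, with 10.7 CPM in control CD8 and 14.7 CPM in IR CD8, against 2.19 and 4.29 CPM in CD4 and 2.30 and 6.20 CPM in DN. Its log2 ratio was 2.28 for control CD8 over control CD4, -2.21 for control DN over control CD8 and 1.78 for IR CD8 over IR CD4. The CD8 intervals outside class II-rich barcodes, 9.67 to 11.6 CPM in control and 12.0 to 18.0 CPM in IR, lay above those of the other subsets of the same condition. H2-Ob stood at 2.37, 5.44 and 0.477 CPM in control and at 8.00, 12.8 and 2.66 CPM in IR libraries. It was highest in CD8 and lowest in DN in both conditions, and in CD8 it was at least 2-fold higher in IR, with a log2 ratio of 1.23. It was below the minimum, and so not counted, with ribosomal, mitochondrial and Malat1 UMIs in the totals, after thinning and at a minimum of 50 CPM.

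**Figure D5:**
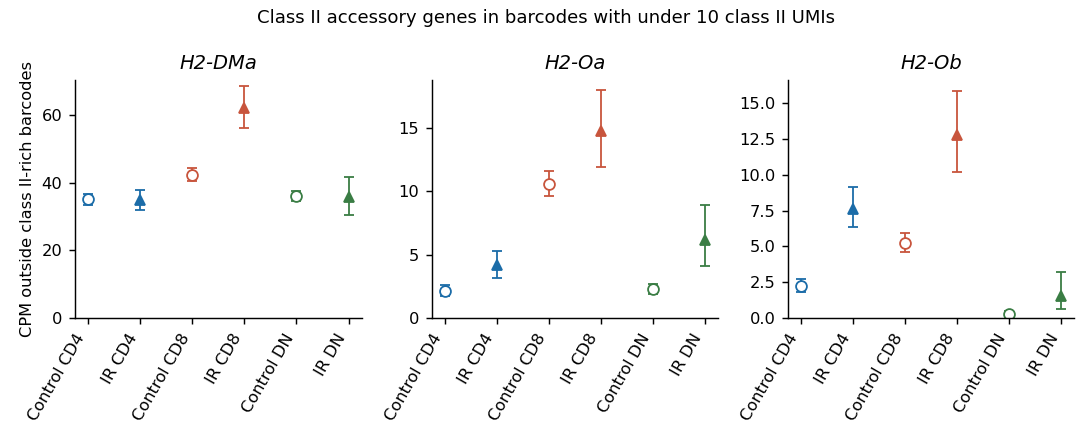
CPM of H2-DMa, H2-Oa and H2-Ob outside class II-rich barcodes in each library, on axes that start at 0, with exact 95% Poisson intervals. Within each condition H2-Oa and H2-Ob are highest in the CD8 library, and H2-Ob is lowest in DN.

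H2-Ob followed Ccr7 among barcodes. In control CD4 it stood at 15.1 CPM in barcodes with a Ccr7 UMI and 1.18 CPM in the rest, and in control CD8 at 19.4 and 1.60 CPM. In IR CD4 the values were 24.9 and 3.57 CPM, and in IR CD8 21.7 and 7.80 CPM. Within Ccr7 barcodes of CD8 the control interval, 16.6 to 22.4 CPM, and the IR interval, 16.2 to 28.6 CPM, overlapped, whereas barcodes without a Ccr7 UMI were higher in IR (5.37 to 10.96 against 1.22 to 2.07 CPM). Median depth without a Ccr7 UMI was 6237 UMIs in control CD8 and 1680 in IR CD8, and its part in the latter values was not tested. H2-Oa in CD8 differed less, with 20.8 and 7.98 CPM in control and 23.4 and 9.93 CPM in IR. H2-DMa was higher in Ccr7 barcodes of CD8 (64.0 against 36.7 CPM in control) and similar in those of CD4 (37.8 against 34.8 CPM).

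In IR over control, 0 of 5 class II genes at 10 CPM or more differed 2-fold in CD4, 0 of 3 in DN, and 5 of 7 in CD8, where H2-Aa (log2 -2.18), H2-Ab1 (-1.79), H2-Eb1 (-1.96) and Cd74 (-1.60) were lower and H2-Ob (1.23) was higher. The shares of all features are those given above. Class II-rich barcodes, 17 in control CD8 and 3 in IR CD8, gave much of the level of the 4 lower genes, but the direction was the same without them. Outside them H2-Aa stood at 3.65 CPM in control CD8 and 1.52 in IR CD8, H2-Eb1 at 4.92 and 1.98 CPM, and H2-Ab1 at the values given above, each with intervals apart, but all below the minimum of 10 CPM and therefore not counted. Cd74 stood at 16.7 and 10.0 CPM with intervals apart and a log2 ratio of -0.74, short of 2-fold, so H2-Ob was the 1 class II gene still counted. Between subsets, 2 of 5 class II genes, H2-Aa and H2-Ab1, were at least 2-fold lower in control DN than in control CD4 (2.75% of all features either way), and 3 of 5, H2-Aa, H2-Ab1 and Cd74, in IR DN than in IR CD4 (8.09%). These libraries held 10 and 37 class II-rich barcodes in control and 3 and 13 in IR. Outside those barcodes both chain genes were below 10 CPM in each library, and DN remained the lower. There H2-Aa stood at 2.77 CPM in control DN and 6.33 CPM in control CD4, and at 2.66 CPM in IR DN and 4.55 CPM in IR CD4, the last pair less than 2-fold apart. H2-Ab1 stood at 2.80 CPM in control DN and 5.50 CPM in control CD4, also less than 2-fold apart. In IR DN and IR CD4 H2-Ab1 stood at 2.66 and 5.39 CPM and Cd74 at 16.8 and 38.6 CPM, both still more than 2-fold apart. The IR DN intervals of H2-Aa and H2-Ab1 (both 1.37 to 4.65 CPM, from 12 UMIs) overlapped those of IR CD4 (3.56 to 5.74 and 4.30 to 6.67 CPM). In IR DN against IR CD8, H2-Eb1 was higher (log2 1.42) and H2-Ob (-2.26) and H2-Oa (-1.25) were lower, 3 of 5 genes beside 11.1% of all features. The H2-Eb1 value came from 46 and 25 UMIs, of which 32 and 12 were in 3 class II-rich barcodes of each library, and outside them it was 3.103 CPM (1.70 to 5.21) against 1.98 CPM (1.05 to 3.38), no longer 2-fold apart. In 5 of 7 genes IR CD8 differed from IR CD4 (7.81% of all features): H2-Oa was higher, and H2-Aa, H2-Ab1, H2-Eb1 and Cd74 were lower in IR CD8 than in IR CD4, with log2 ratios from -2.32 to -1.96. Outside the class II-rich barcodes H2-Aa stood at 1.52 CPM in IR CD8 and 4.55 CPM in IR CD4, H2-Ab1 at 1.82 and 5.39 CPM, and H2-Eb1 at 1.98 and 5.45 CPM. These were below the minimum of 10 CPM and would not be counted, while Cd74 stood at 10.0 and 38.6 CPM.

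Of 16 other genes of the class II pathway, 12, 11 and 12 reached 10 CPM in CD4, CD8 and DN. In IR over control 3, 0 and 1 were at least 2-fold higher and 1, 2 and 1 lower, beside 8.04%, 8.8% and 9.57% of all features higher and 14.7%, 16.6% and 10.1% lower. Cd86, a costimulatory ligand, was lower in all 3 subsets, from 32.7, 73.1 and 16.4 CPM in control to 15.0, 22.5 and 7.97 CPM in IR. Ctss, the protease cathepsin S that cuts the invariant chain, was higher in IR CD4 (165 against 78.7 CPM), as was the lysosomal protease gene Lgmn (11.7 against 3.08 CPM). Macrophage or monocyte genes were also higher there: outside class II-rich barcodes they marked 0.637% of barcodes in IR CD4 and 0.271% in control CD4, with 742 UMIs of the list among the fewer UMIs of IR CD4 and 602 in control CD4. Their part in the Ctss and Lgmn values was not tested. Rfxap, a subunit of the RFX factor that binds the X box, was higher in IR CD4 (100.2 against 48.3 CPM), while Rfx5 of the same factor was lower in IR CD8 (3.65 against 10.1 CPM). March1, a ubiquitin ligase that takes class II off the surface, was higher in IR DN (11.1 against 0.592 CPM).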

How the data were processed

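UMI counts per gene and barcode were deposited as raw, unnormalized counts that the authors made with Cell Ranger on mm10. By the file headers, control matrices come from version 5.0.1 and IR matrices from 6.0.1 (the labels give 6.0.1 throughout), so condition and version cannot be told apart. Barcodes were kept with at least 500 features and at most 20% mitochondrial UMIs, outside the top 5% of UMIs per library. CPM were taken over features left after 104 mitochondrial, ribosomal protein and Malat1 features were removed. A gene was counted as different at 10 CPM or more in the higher library and a 2-fold ratio, with 0 set to 3 counts. No test was run, as each group had 1 library. Intervals were exact Poisson or Clopper-Pearson. GENCODE annotation (GRCm38) matched 32235 of 32285 features. Members, lists and limits were chosen with earlier results of these data known, and the Ccr7 and interferon splits after values were seen. Genes were named if they reached 10 CPM, and pathway genes if they also differed 2-fold. The counting rule was tested on simulated data. Python 3.11.15, scipy 1.17.1 and edgeR 4.0.16 (TMM factors only) were used. Some genes of the lists are not reported here.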

Additional observations from a re-analysis of the deposited data

Results flagged for a closer look

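The barcodes that the filters left out (low quality or among the highest 5% of UMIs) entered no comparison. Of their class II levels, 2 were above control with intervals for counting error apart. These intervals treat each UMI as independent and do not cover the spread between barcodes. H2-Aa, H2-Ab1 and H2-Eb1 together stood at 168 CPM in left-out barcodes of IR CD4, against 109 CPM in those of control CD4, and at 61.1 CPM in IR DN against 19.4 CPM in control DN. In CD8 the order was the other way, with 46.4 CPM in IR and 128 CPM in control. Left-out barcodes included 14, 12 and 3 class II-rich ones in the control libraries (CD4, CD8, DN) and 8, 2 and 3 in the IR ones. All 8 of IR CD4 were among the highest 5% of UMIs and all 3 of IR DN were of low quality. Class II-rich barcodes hold 10 or more UMIs each, and the left-out levels rested on 426 UMIs in IR CD4 and 56 in IR DN. A few barcodes thus gave part of these levels. Whether the differences exceed the spread between barcodes, and what sets these levels, was not tested.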

How the results depend on the processing

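No paired analysis was possible because each group has 1 library and no replicate could be left out. With no minimum CPM, class I counts in IR over control were 5 in CD4 and 6 in DN, class II counts were 4 and 5 (higher in IR: 1 and 3 of class I, 3 and 5 of class II, where 30.8% and 42.5% of all features were higher), and subset counts of class I were 5, 2 and 2 in control (DN against CD4, DN against CD8, CD8 against CD4) and 2, 3 and 1 in IR. With 50 CPM, class I counts were 1, 2 and 1 in CD4, CD8 and DN, all lower, beside 16.7%, 18.2% and 11.6% of all features. Class II in CD8 was 0, and class I was 0 in control DN against CD4 and against CD8 and in IR DN against CD8. In these subset comparisons 1.16%, 2.95% and 6.97% of all features were higher and 1.13%, 2.49% and 3.48% lower. With ribosomal, mitochondrial and Malat1 UMIs in the totals, class I counts were 8 in CD8 and 1 in DN (37.6% and 16.5% of all features were then lower). Class II in CD8 was 2, both lower. Class I was 0 in control DN against CD8 (3.92% of all features higher and 2.60% lower). In IR DN against CD8 class I was 2, both higher (12.9% of all features), where the 1 gene counted otherwise, H2-Q10, was lower. In barcodes with a Cd3 UMI, class II in CD4 was 1 and class I in CD8 was 2, all lower, beside 15.2% and 18.0% of all features. Without class II-rich barcodes, class II in CD8 was 1, a higher gene, beside 8.80% of all features. Thinned to 1000 UMIs, class II in CD8 was 3, all lower, beside 18.0% of all features. Apart from calls set by a count of 0, the cause of these moves was not tested.

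Class II-rich barcodes at 5 UMIs numbered 28 and 16 in control CD8 and DN and 25 in IR CD4, and at 20 UMIs 18 in control CD4 and 0 and 1 in IR CD8 and DN. At 0.2% of UMIs there were 22 in IR CD4 and 6 in IR DN, against 30 and 8 in control. With no cell filters there were 29 in control CD8 and 21, 5 and 6 in IR, and with the top 5% kept 21 and 5 in IR CD4 and CD8. With a Cd3 UMI 5, 1 and 0 remained in IR. Shares of barcodes with a class II UMI without thinning were 8.16%, 4.89% and 4.81% in control and 1.43% and 0.529% in IR CD4 and CD8. At 500 UMIs they were 1.08%, 0.902% and 0.460% in control and 0.509% and 0.202% in IR CD4 and CD8, and without class II-rich barcodes 1.73% in control CD4. Class I heavy chain shares without thinning were 99.96%, 99.96% and 99.89% in control and 99.6%, 98.6% and 98.7% in IR, and at 500 UMIs 96.4%, 96.5% and 96.3% in control and 91.2%, 81.3% and 93.2% in IR. Over the 2013 alternatives in which a named gene stayed above the minimum CPM, none turned a called direction, 17 lost a 2-fold call, 29 gained one and 93 turned the sign of a ratio under 2-fold. Calls lost because a gene fell below the minimum, such as those of the class II chains in CD8 without class II-rich barcodes, are not among the 17.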
